A study of Callosobruchus maculatus with 24 samples.

Results

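The comparison covered gene expression in the abdomen against that in the combined head and thorax of mated male Callosobruchus maculatus, a seed beetle whose larvae grow inside stored legumes. Its members were chosen by their labels: 3 libraries of mated male abdomens and 3 of mated male heads and thoraces, 6 of the 24 libraries of the series. The series holds 8 groups of 3 libraries, formed by sex, mating status (virgin or mated) and body part, and every group was of the strain South India. For comparison the text uses virgin males (abdomen, head and thorax), mated females (abdomen, head and thorax) and virgin females (abdomen, head and thorax). How matings were set up, how old the beetles were and how many made up a library: none of this is in the sources used here. Nothing in the labels says that the 3 libraries of a group came from separate pools of beetles. The p-values therefore measure the spread between these libraries, which may be technical.

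The abdomen of a male beetle holds the testes, the accessory glands that make seminal fluid, most of the gut, the excretory tubules and much of the fat body. The head and thorax hold the brain, the eyes and antennae, and the flight and leg muscles. In insects, many genes of sperm formation and of seminal fluid are used almost only by male reproductive tissue. RNA of these body parts was sequenced in bulk, so that fewer cells of a type and less RNA per cell cannot be told apart. The gene IDs in the files are not paired with gene names, so single genes are given by ID with no function, and the tissues in each body part could not be checked against marker genes.

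The abdominal libraries of mated males held 8481013 to 8988032 counts (mean 8672410 ± 275393, SD, n = 3), and those of the head and thorax 7805440 to 8159411 (7948002 ± 186758, SD, n = 3). Levels are given as CPM, counts scaled to a common library total after TMM normalisation (trimmed mean of M values). At these depths 1 CPM rests on 7.18 to 8.34 counts per library. Across genes, log2(CPM + 1) values of the 3 abdominal libraries correlated with each other at r = 0.974 to 0.977 and those of the head and thorax at 0.973 to 0.976. Between body parts r ran from 0.732 to 0.784. These r are over 15558 genes, which are not independent replicates. Of the abdominal libraries, replicate 1 stood nearest to the head and thorax, with a mean r of 0.776 against 0.743 and 0.748. Among the virgin libraries used for comparison, replicate 1 of the head and thorax of virgin males stood apart, as its values below show, and results that rest on it are given with and without it.

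Abdomen and head and thorax differed over most of the genes that could be tested. Of 15558 genes, 7978 (51.3%) passed an adjusted p of 0.05 (edgeR's quasi-likelihood test, Benjamini-Hochberg adjustment). Higher levels in the abdomen were found for 4319 genes (27.8%) and higher levels in the head and thorax for 3659 (23.5%). The median log2 fold change, abdomen minus head and thorax, was 1.26 over the former and -0.97 over the latter, and 0.03 over all genes tested. In 9016 genes (58.0%) the 3 abdominal and 3 head and thorax libraries did not overlap in CPM, and 7705 of the called genes were among these. At the other end, 6517 genes (41.9%) had a 95% interval of the fold change that lay wholly within 2-fold in either direction, of which 2765 were called.

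Large differences lay mostly on the abdominal side. At least 2-fold differences were called for 2452 genes higher in the abdomen and 1777 higher in the head and thorax. At 8-fold and over the counts were 1466 (9.42%) and 447 (2.87%), and at 64-fold and over 1024 and 112. Many of these genes had few or no counts in the body part where they were low. In 418 genes called higher in the abdomen no head and thorax library held a count, and the most abundant of them reached a mean of 576 CPM in the abdomen. The reverse held for 87 genes, with means of up to 115 CPM in the head and thorax. Genes with no count in a body part were then set there to a floor of 3 counts over its 3 libraries. This floor was 0.125 CPM in the abdomen and 0.135 CPM in the head and thorax. Genes with any count in both body parts kept their fitted fold change, however few the counts. On this scale 1432 and 435 genes differed at least 8-fold, and 774 and 50 at least 64-fold. Among genes with at least 3 counts in every one of the 6 libraries, 302 were called 8-fold or more higher in the abdomen and 154 on the side of the head and thorax, and 122 and 7 passed 64-fold.

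**Figure D1:**
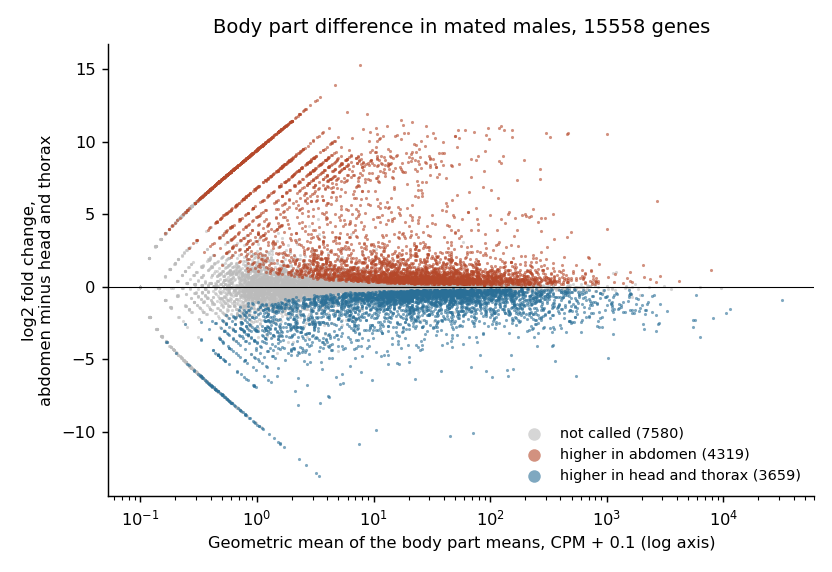
Log2 fold change (abdomen minus head and thorax) of the 15558 genes tested in mated males against the geometric mean of the body part means in CPM (log axis). Each point is a gene, coloured by its call: 4319 genes are higher in the abdomen, 3659 higher in the head and thorax and the rest not called. The large differences form a cloud on the abdominal side.

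The share of genes called rose with level, and low genes rest on few counts. By the mean of both body parts, 15.5% of 2025 genes under 1 CPM were called, 39.3% of 5528 genes between 1 and 10 CPM, and 65.0% of 6323 genes between 10 and 100 CPM. Between 100 and 1000 CPM 82.1% of 1537 genes were called, 624 higher in the abdomen and 638 higher in the head and thorax. Of the 145 genes at 1000 CPM and over, 42 were higher in the abdomen and 82 higher in the head and thorax, and the median log2 fold change was -0.59. Among the same genes, 8-fold differences were called for 27 genes higher in the abdomen and 7 higher in the head and thorax. The most abundant genes were thus more often higher in the head and thorax by count, while more of the 8-fold differences among them were on the abdominal side.

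Each body part drew a similar share of its counts from its 10 most abundant genes, 15.7% ± 0.651 (SD, n = 3) in the abdomen and 16.6% ± 0.628 for the head and thorax (exact two-sided permutation test, p = 0.2). Counts were spread over more genes in the abdomen: 280 to 309 genes held 50% of the counts of an abdominal library and 198 to 218 those of a head and thorax library. These ranges do not overlap, and the exact p of 0.1 is the smallest that 3 against 3 libraries can give. At least 1 count was found for 17818 to 18032 genes per abdominal library and for 17162 to 17295 per head and thorax library.

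Of the 10 most abundant genes of the abdomen, 7 were called higher there, 5 of them at least 64-fold, 2 were called higher in the head and thorax and 1 was not called. The most abundant gene stood at 37734, 35282 and 41687 CPM in the 3 abdomens. In the 3 heads and thoraces it stood at 12.8, 38.8 and 26.1 CPM, so that the lowest abdomen was far above the highest head and thorax (log2 fold change 10.53, SE 0.79, adjusted p = 1.59e-09). Mated females held it at 5.99 CPM in the abdomen and 25.8 CPM in the head and thorax, means in the range of the male head and thorax or below. The genes ranked 4, 5, 6 and 8 in the abdomen differed in the same way between the body parts of mated males. Their abdominal means lay between 11616 and 18306 CPM, and their head and thorax means between 7.60 and 11.8 CPM. In mated females the gene ranked 6 stood at 13.5 CPM in the abdomen and 8.37 CPM in the head and thorax. Those ranked 4, 5 and 8 were lower in the female abdomen than in the female head and thorax.

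The third-ranked gene of the abdomen differed less in ratio, with 20928 ± 2564 CPM (SD, n = 3) against 345 ± 7.22 CPM, a log2 difference of 5.92 (SE 0.21; edgeR's adjusted p = 5.06e-14). In mated females the same gene leaned the other way, with 140 CPM in the abdomen and 438 CPM in the head and thorax. The gene ranked second in the abdomen was the most abundant gene of the head and thorax. It stood at 23521, 22990 and 23404 CPM in the abdomens and at 42240, 45653 and 44387 CPM in the heads and thoraces (log2 fold change -0.92, SE 0.071, adjusted p = 1.76e-09), with no overlap.

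Of the 10 most abundant genes of the head and thorax, 9 were called higher there and 1 was not called. None of the 10 was absent from the abdomen, and 2 reached an 8-fold difference. The gene ranked second stood at 20549, 20604 and 21174 CPM in the heads and thoraces and at 2275, 1785 and 1681 CPM in the abdomens (log2 fold change -3.44, SE 0.126, adjusted p = 6.19e-14). Mated females held it at 11928 ± 820 CPM in the head and thorax and 422 ± 44.5 CPM in the abdomen (SD, n = 3). It was the most abundant of the genes called 8-fold or more higher in the head and thorax of mated males. The top genes of the head and thorax were therefore also high in the abdomen. In contrast, 5 of the top abdominal genes had means of only 7.60 to 25.9 CPM in the head and thorax. The 2 lists of 10 had 3 genes in common.

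Genes were named by ID where the fold change was largest among called genes whose CPM did not overlap and whose counts were 3 or more in each of the 6 libraries. The first gene on the abdominal side, TR23201|c0_g1, stood at 6099, 5080 and 5883 CPM in the 3 abdomens and at 1.68, 2.37 and 3.66 CPM in the 3 heads and thoraces. The abdominal mean was 5688 ± 537 CPM and the head and thorax mean 2.57 ± 1.00 CPM (SD, n = 3), which is 11.11 on the log2 scale (SE 0.56; edgeR's adjusted p = 5.11e-12). Virgin males gave 4819 ± 219 CPM in the abdomen and 1.18 ± 0.254 CPM in the head and thorax. In mated females the gene was near the male head and thorax level in both body parts, at 0.828 ± 0.164 and 2.72 ± 3.20 CPM.

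TR68266|c0_g1 followed, with 4330, 3782 and 4471 CPM in the abdomens of mated males and 2.46, 1.12 and 2.71 CPM in their heads and thoraces. Its log2 fold change was 10.95 (SE 0.73, adjusted p = 3.20e-10). Virgin male abdomens held 4327 ± 497 CPM (SD, n = 3). Virgin male heads and thoraces held 7.80 CPM in the library that stands apart and 1.2 and 0.716 CPM in the others. Mated females held under 1 CPM in each abdomen (0.867, 0.705 and 0.555 CPM).

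On the side of the head and thorax, TR52514|c0_g1 stood at 1575, 1691 and 1341 CPM in the 3 heads and thoraces and at 0.960, 1.25 and 1.55 CPM in the 3 abdomens. The log2 fold change was -10.25 (SE 0.247, adjusted p = 2.16e-16). Virgin males differed by a like amount, with 1763 ± 110 against 1.71 ± 0.102 CPM (SD, n = 3). Mated females also had more in the head and thorax, 568 ± 47.0 against 3.70 ± 0.722 CPM, a log2 difference of -7.26 (SE 0.21; edgeR's adjusted p = 3.22e-15).

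TR32548|c0_g1 stood at 2262, 2507 and 2074 CPM in the heads and thoraces of mated males and at 2.16, 2.25 and 2.07 CPM in their abdomens, a log2 difference of -10.04 (SE 0.149; edgeR's adjusted p = 2.93e-19). In mated females the log2 fold change was -10.01 (SE 0.154, adjusted p = 5.83e-19), on levels of 812 ± 72.8 CPM in the head and thorax and 0.770 ± 0.174 CPM in the abdomen (SD, n = 3). Both genes named on the side of the head and thorax thus had calls for that body part in males and females alike. In mated females TR23201|c0_g1 and TR68266|c0_g1, the genes named on the abdominal side, were called in the opposite direction, on means of under 3 CPM in both body parts. The highest value of each was that of replicate 2 of the mated female head and thorax, at 6.36 and 6.25 CPM. The female body parts overlapped in both genes, so no direction is drawn for females.

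**Figure D2:**
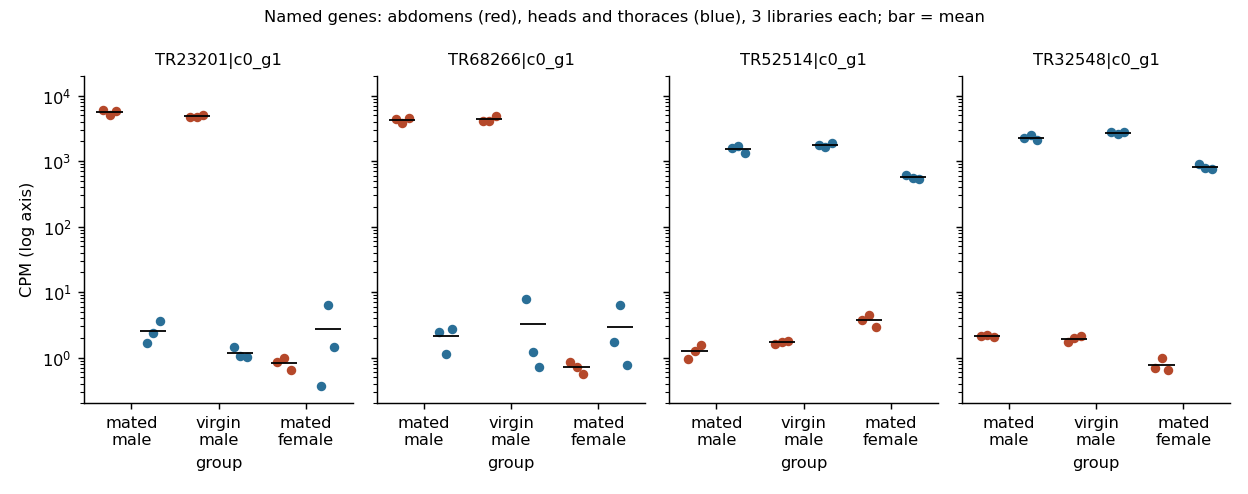
CPM (log axis) of the 4 named genes in each library of mated males, virgin males and mated females, abdomens in red and heads and thoraces in blue, with a bar at the mean of 3 libraries. TR23201|c0_g1 and TR68266|c0_g1 are at 3782 to 6099 CPM in mated male abdomens and under 10 CPM in every head and thorax library and female abdomen plotted. TR52514|c0_g1 and TR32548|c0_g1 are high in the heads and thoraces of both sexes.

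Virgin males gave a second measure of the male body part difference in libraries that the mated comparison does not use. Of the genes called higher in the abdomen of mated males, 3783 were also called so in virgin males, 87.6% of the mated list and 89.2% of the virgin list. Of those higher in the head and thorax of mated males, 3204 were shared, 87.6% of the mated and 82.3% of the virgin list. In virgin males 27.2% of all genes tested were called higher in the abdomen and 25% higher in the head and thorax, and 8.93% and 3.06% by 8-fold or more. Opposite calls were made for 5 genes, of which 4 were higher in the mated male abdomen and the virgin male head and thorax. Of the 1466 genes 8-fold or more higher in the mated male abdomen, 1382 (94.3%) were called higher in the virgin male abdomen too. Of the 447 on the other side, 398 (89.0%) were called higher in the virgin male head and thorax too.

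The size of the abdominal excess in virgin males rested on replicate 1 of their heads and thoraces. Over the 1466 genes the median log2 fold change was 7.49 in mated males. In virgin males it was 5.11 with all libraries and 7.53 without that replicate. The number of genes called 64-fold or more higher in the virgin male abdomen was 304 with it and 1070 without it, while the number at 8-fold and over was 1389 and 1452. Values of this library for a list of abdominal genes are given below, and their part in these counts was not tested.

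Read the other way, body part classes were formed from virgin males (adjusted p of at most 0.05 and at least 8-fold) and their genes were followed in mated males. Of 1389 genes of the virgin male abdomen, 1345 (96.8%) were called higher in the abdomen of mated males, 0 in the head and thorax and 44 were not called. Their median log2 fold change in mated males was 7.55, or 6.37 with genes without counts set to the floor. Of 476 genes of the virgin male head and thorax, 435 (91.4%) were called higher in the head and thorax of mated males, 0 in the abdomen and 41 were not called, with a median of -3.75, or -3.64 at the floor. Over all genes tested the shares were 27.8% and 23.5% and the median 0.03.

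Mating changed the male body part difference in few genes by this test. The interaction of mating and body part in males was called for 3 of 15558 genes (0.0193%), 2 of them more positive (0.0129%) and 1 more negative (0.00643%) in mated males (edgeR's quasi-likelihood test). It uses the 6 mated male libraries as well as the 6 of virgin males. At an unadjusted p under 0.05 there were 1451 genes, and DESeq2 called 62. The 95% interval of the interaction lay within 2-fold in either direction for 8250 genes and reached beyond it for the rest, where a 2-fold change with mating was within the error. The 3 calls were sensitive to single libraries. Without replicate 1 of the mated male abdomen, replicate 2 of the mated male head and thorax or replicate 3 of the virgin male abdomen the count was 0, and without replicate 1 of the mated male head and thorax or replicate 2 of the virgin male abdomen it was 1. It was 5 without replicate 3 of the mated male abdomen or replicate 1 of the virgin male head and thorax, and 6 without replicate 2 or replicate 3 of the virgin male head and thorax. Without replicate 3 of the mated male head and thorax it was 10.

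TR10061|c1_g2 had the largest of the 3 interactions, a log2 value of 3.12 (SE 0.476, adjusted p = 0.0194). In mated males it stood at 500, 504 and 607 CPM in the abdomens and at 54.2, 39.7 and 50.4 CPM in the heads and thoraces. In virgin males the abdomens held 481, 293 and 261 CPM and the heads and thoraces 205, 447 and 155 CPM, so the body parts overlapped there and not in mated males. The virgin head and thorax library at 447 CPM was replicate 2, and the interaction without it was 2.56 (adjusted p = 0.0464).

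TR44314|c1_g4 had an interaction of 0.82 (SE 0.125, adjusted p = 0.0194). Its levels in mated males were 239, 205 and 202 CPM in the abdomens and 227, 246 and 253 CPM in the heads and thoraces, a difference that was not called (log2 fold change -0.17, adjusted p = 0.122). In virgin males it stood at 78.9 ± 5.85 CPM in the abdomen and 156 ± 9.19 CPM in the head and thorax (SD, n = 3), with no overlap. TR8464|c3_g6 had an interaction of -0.72 (SE 0.0975, adjusted p = 0.0113). It was higher in the abdomen of males of both kinds, at 596 ± 28.7 against 154 ± 8.56 CPM in mated males and 813 ± 5.76 against 128 ± 15 CPM in virgin males. TR8464|c3_g6 lost its call in 3 of 12 fits that left out 1 library, and TR10061|c1_g2 and TR44314|c1_g4 each in 5. None of the 3 was called by edgeR in a fit of only the libraries compared, where the adjusted p was 0.343 for TR10061|c1_g2 and 0.222 for the other two.

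Mated females shared much of the head and thorax side and little of the steep abdominal side. Of the genes called higher in the head and thorax of mated males, 2283 were called so in mated females as well, 62.4% of either list. Of those higher in the abdomen of mated males 2194 were shared, 50.8% of the male and 39.7% of the female list. In mated females 35.5% of all genes tested were called higher in the abdomen and 23.5% higher in the head and thorax, and 2.31% and 4.18% by 8-fold or more. Opposite calls were made for 330 genes higher in the male abdomen (7.64% of that list) and 689 higher in the male head and thorax (18.8%). Their median log2 fold changes were 0.92 in males and -0.74 in females for the 330, and -0.47 and 0.64 for the 689. How far these counts depend on the scaling was not tested.

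Of the 447 genes 8-fold or more higher in the head and thorax of mated males, 361 (80.8%) were called in the same direction in mated females, 12 in the opposite direction and 74 were not called. For 306 of them the female difference was 8-fold or more as well. Together these 306 held 6.52% ± 0.0588 of the counts of male heads and thoraces and 3.94% ± 0.183 of those of female heads and thoraces (SD, n = 3). Of the 1466 genes 8-fold or more higher in the abdomen of mated males, 237 (16.2%) were called higher in the abdomen of mated females, 57 in the head and thorax and 1172 were not called. An 8-fold difference in both sexes was called for 97 genes, which held 0.580% ± 0.0622 of the counts of male abdomens and 0.570% ± 0.0271 of those of female abdomens. Their most abundant member stood at 1092 ± 349 CPM in the male abdomen and 405 ± 100 CPM in the female abdomen, against 112 ± 71.3 and 29.0 ± 25.5 CPM in the heads and thoraces.

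The 1466 abdominal genes together held 31.0% ± 1.87 of the counts of mated male abdomens (SD, n = 3), the values that chose them. In mated female abdomens the same genes held 1.26% ± 0.0392, and 1100 of them (75%) had a mean under 1 CPM there. Of the 447 head and thorax genes, 62 (13.9%) had a mean under 1 CPM in the female head and thorax. The steep abdominal genes of mated males thus mostly had means under 1 CPM in the mated female abdomen, while most of the steep head and thorax genes were found in both sexes.

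The interaction of sex and body part in mated beetles was called for 7057 of 15558 genes (45.4%), 3132 (20.1%) leaning more to the abdomen in males and 3925 (25.2%) in females, so that 44.4% of the calls were positive. This split depends on the scaling. With size factors of DESeq2 it was 3874 and 3010 (56.3% positive) and by library size only 2439 and 5000 (32.8% positive), as the median of all genes moved from -0.05 to 0.14 and to -0.28 on the log2 scale. The numbers of either sign are therefore relative to the scaling, while the 4 genes named next lie far from it.

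Of the called genes whose counts reached 3 in every library of the 4 groups, TR39199|c0_g1 had the most positive interaction of sex and body part, a log2 value of 13.40 (SE 0.91, adjusted p = 2.26e-09). It stood at 5688, 5417 and 5374 CPM in mated male abdomens and at 1.68, 4.88 and 2.71 CPM in mated male heads and thoraces. Mated female abdomens held 0.694, 0.705 and 0.648 CPM and female heads and thoraces 1.33, 8.86 and 2.41 CPM. Without the female library at 8.86 CPM the interaction was 12.29. TR64881|c2_g2 had an interaction of 13.39 (SE 0.97, adjusted p = 4.68e-09), with 2843 ± 210 CPM in male abdomens and means of 0.298 to 2.01 CPM in the other 3 mated groups (SD, n = 3). Its interaction was 11.90 without the same female library and 14.21 without replicate 2 of the mated male head and thorax.

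By the same rule, the 2 most negative interactions belonged to genes of the female abdomen. TR25775|c0_g2 stood at 11376, 11394 and 9273 CPM in mated female abdomens. In mated males it stood at 2.04, 4.24 and 2.85 CPM in the abdomens and at 4.15, 3.49 and 5.82 CPM in the heads and thoraces, ranges that overlap, and its male body part difference was not called (adjusted p = 0.721). Its interaction was -12.14 (SE 1.59, adjusted p = 5.49e-06), and DESeq2 gave no adjusted p for it. TR44677|c1_g2 showed the same pattern, with 13803 ± 1264 CPM in mated female abdomens, 3.26 ± 1.65 CPM in mated male abdomens and 4.87 ± 3.09 CPM in mated male heads and thoraces (SD, n = 3). Its interaction was -12.07 (SE 1.65, adjusted p = 9.34e-06), or -11.39 without replicate 3 of the mated male head and thorax, and DESeq2 gave no adjusted p for it either.

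**Figure D3:**
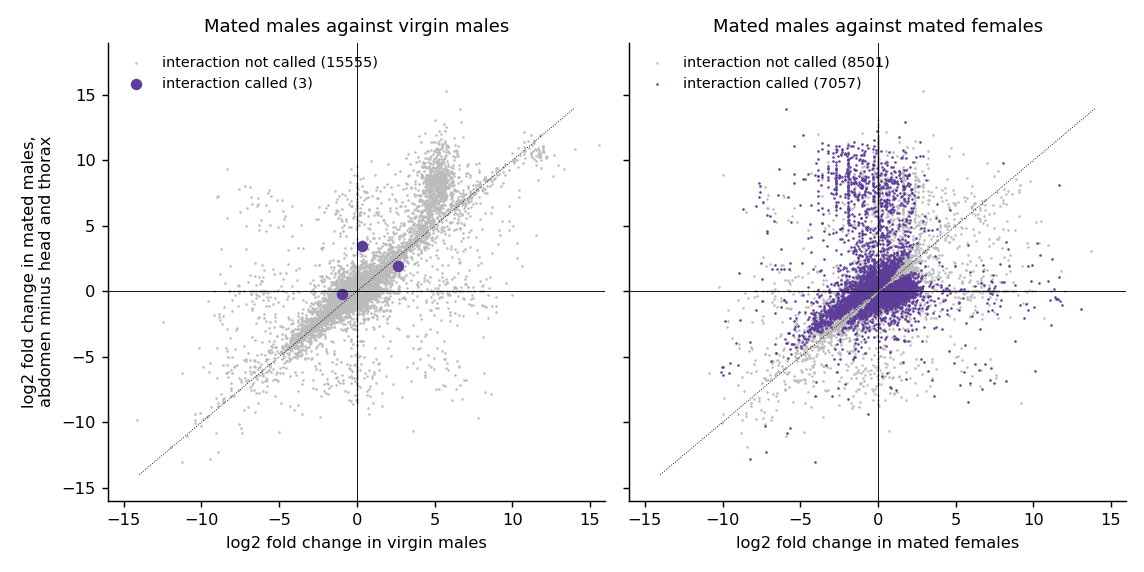
Log2 fold change (abdomen minus head and thorax) in mated males against that in virgin males (left) and in mated females (right), 1 point per gene, with the line of equal values dotted. Genes whose interaction was called are in purple, 3 on the left and 7057 on the right. Steep abdominal genes of mated males stand above the line on the left, where replicate 1 of the virgin male head and thorax is included, and around 0 on the female axis on the right.

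The steep abdominal genes were mostly genes with a male bias. Sex bias was taken from virgin beetles, whose libraries are not part of the mated male comparison, as an adjusted p of at most 0.05 and at least 2-fold between males and females of a body part. Of the 1466 genes 8-fold or more higher in the mated male abdomen, 1294 (88.3%) were male-biased in virgin abdomens, 48 (3.27%) were female-biased and 124 (8.46%) had no such bias. Over all genes tested these shares were 26.3%, 22.8% and 51.0%. Genes higher in the abdomen by under 8-fold were close to the whole, with 23.4% male-biased, 20.2% female-biased and 56.4% without bias. Of the 447 genes 8-fold or more higher in the head and thorax, 133 (29.8%) were male-biased in virgin abdomens, 61 (13.6%) female-biased and 253 (56.6%) without bias.

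Followed from the class to the comparison, 4086 genes were male-biased in virgin abdomens. Of these, 1963 (48.0%) were called higher in the abdomen of mated males, 1018 (24.9%) higher in the head and thorax and 1105 were not called, against 27.8% and 23.5% of all genes tested. Their median log2 fold change was 0.50, against 0.03 over all genes. This median was 1.08 when counts were scaled by library size only and 4.24 when the class asked for double the fold. The 3540 genes female-biased in virgin abdomens were called in both directions, 623 (17.6%) higher in the abdomen and 670 (18.9%) higher in the head and thorax of mated males, with a median of 0.00. The 7932 genes without bias in virgin abdomens had 1733 calls (21.8%) for the abdomen and 1971 (24.8%) for the head and thorax.

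The classes of sex bias in virgin heads and thoraces were smaller. Of 960 genes that were female-biased there, 366 (38.1%) were called higher in the abdomen of mated males and 49 (5.10%) higher in their head and thorax, with a median of 0.53. Of 1253 genes that were male-biased there, 629 (50.2%) were called higher in the abdomen and 376 (30.0%) higher in the head and thorax, with a median of 1.00. This male-biased class rests on replicate 1 of the virgin male head and thorax. Chosen without that library, 22.3% of the class was called higher in the abdomen and 47.1% higher in the head and thorax, and the median turned to -0.57. No direction is therefore drawn for it.

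To see how much of the RNA of a body part lay in genes limited to it, lists were formed from virgin males. A gene was taken as limited to a body part when its mean there was 5 CPM or more and its mean in the other was 1/16 of this or less. This gave 986 genes limited to the abdomen and 168 limited to the head and thorax. The 986 abdominal genes summed to 295020, 318757 and 337679 CPM in the 3 mated male abdomens, 29.4% ± 1.78 of the counts of the genes tested (SD, n = 3). In the 3 mated male heads and thoraces they summed to 2871, 1676 and 1361 CPM, 0.185% ± 0.0767 of those counts. The abdominal sum was 161-fold higher, a log2 ratio of 7.33, and the libraries did not overlap. With a limit of 1/64 the list held 214 genes and the log2 ratio was 9.24, and with a minimum of 50 CPM it held 446 genes and the ratio was 7.41. The exact two-sided permutation p of 0.1 is the smallest that 3 against 3 libraries can give. Of the 986 genes 965 were called higher in the mated male abdomen, 0 lower and 21 were not called. Over all genes tested 27.8% were called higher and 23.5% lower. The median log2 fold change of the 986 genes was 8.21, or 7.46 at the floor.

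Most of the abdominal list was male-limited in the sense of at most 1/16 of the level in virgin female abdomens. These 857 genes summed to 287264, 309115 and 328713 CPM in mated male abdomens, 28.6% ± 1.71 of the counts (SD, n = 3). Of the 857, 852 were called higher there, against 27.8% of all genes tested. Mated female abdomens held 773, 804 and 721 CPM of the same genes, 402-fold less (exact two-sided permutation test, p = 0.1, the smallest possible). A small number of the genes carried most of the sum. The 49 male-limited genes at 1000 CPM and over in virgin male abdomens summed to 221479 ± 14225 CPM in mated male abdomens, and the most abundant gene alone held 12.4% of the sum of all 857.

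The male-limited genes were low in the heads and thoraces of every group. Mated males held 2346, 1373 and 1045 CPM there and mated females 927, 1300 and 842 CPM, ranges that overlap, and the means differed 1.55-fold (exact two-sided permutation test, p = 0.2). Virgin male heads and thoraces held 8736, 775 and 1427 CPM. The first of these is replicate 1, in which 798 of the 857 genes had a count against a mean of 466 in the other two. In the 3 mated male heads and thoraces 543, 548 and 404 of the genes had a count. For the 49 most abundant of them the level in the head and thorax was a median of 0.072%, 0.172% and 0.0732% of the abdominal mean, in replicates 1, 2 and 3. The highest ratio in a library was 10.2%, 3.68% and 4.78%, so the ratio differed between genes within a library. Whether the genes are used in the head and thorax was not tested.

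The other 129 abdominal genes, those not male-limited, summed to 7756, 9642 and 8966 CPM in mated male abdomens and to 525, 302 and 316 CPM in their heads and thoraces, 23.1-fold less. Mated female abdomens held 5166 ± 235 CPM of them (SD, n = 3). In mated males 113 were called higher in the abdomen, against 27.8% of all genes tested, 0 were called lower and 16 were not called. Chosen without replicate 1 of the virgin male head and thorax, the lists held 900 male-limited and 158 other genes, and the log2 ratios of the sums were 7.47 and 4.24 in place of 7.60 and 4.53. With the limit of 1/64 the log2 ratios were 9.70 over 162 male-limited genes and 5.21 over 52 others.

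The 168 genes limited to the head and thorax made up a smaller share. They summed to 30795, 31924 and 30995 CPM in mated male heads and thoraces, 2.92% ± 0.0145 of the counts (SD, n = 3), and to 1494, 610 and 653 CPM in mated male abdomens. The head and thorax sum was 34-fold higher, with no overlap (exact p = 0.1, the smallest possible). The high abdominal value was that of replicate 1, the abdomen that stood nearest to the head and thorax over all genes, and without it the log2 ratio of abdomen to head and thorax was -5.63 in place of -5.09. The limit of 1/64 left 78 genes with a log2 ratio of -6.04. Of the 168 genes 146 were called higher in the head and thorax, against 23.5% of all genes tested, 0 were called lower and 22 were not called. Mated female heads and thoraces held 16893 ± 1250 CPM of the 168 genes, so that male heads and thoraces held 1.85-fold more, with no overlap (exact p = 0.1). The list was chosen by levels in virgin males alone, which favours a male excess, so no sex difference is drawn from this.

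**Figure D4:**
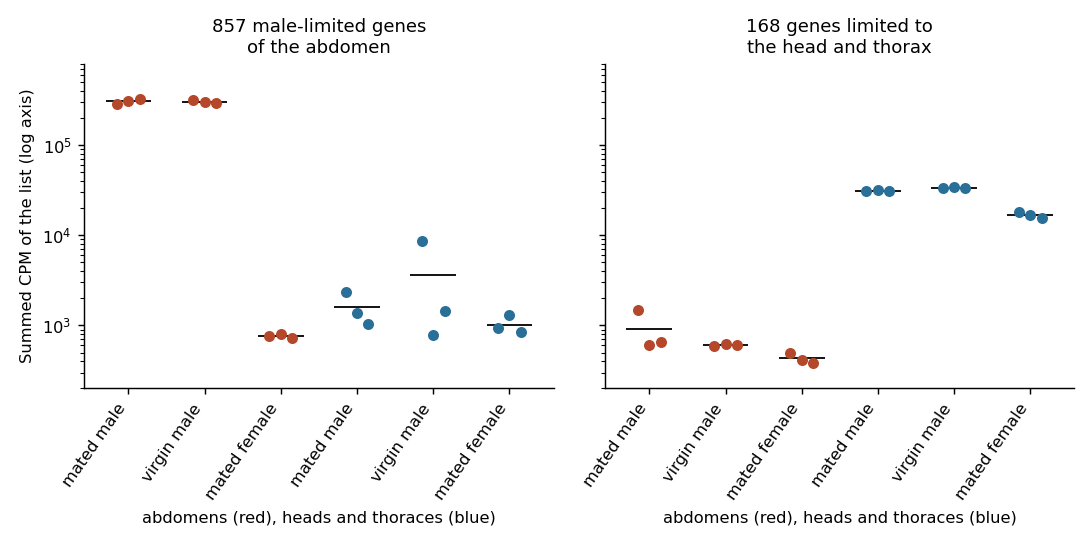
Summed CPM (log axis) of 857 male-limited abdominal genes and of 168 genes limited to the head and thorax, both chosen in virgin males, in each library of 6 groups, with a bar at the mean of 3 libraries. The male-limited sum is 287264 to 328713 CPM in mated male abdomens and 1045 to 2346 CPM in their heads and thoraces. Replicate 1 of the virgin male head and thorax, at 8736 CPM, is the highest of the head and thorax libraries.

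Within genes, the share of counts taken by each transcript was compared between body parts over 6341 genes with 2 or more transcripts tested. Transcript usage differed in 338 genes (5.33%) at an adjusted p of 0.05 (edgeR's diffSpliceDGE, Simes p per gene, Benjamini-Hochberg adjustment), and 886 passed an unadjusted p of 0.05. The count varied with the method: an F test over the gene's transcripts called 773 genes and limma's diffSplice 1093, and leaving out single libraries gave 228 to 280. The share called rose with the number of transcripts, from 2.27% of 2776 genes with 2 transcripts to 13.4% of 871 genes with 6 and over. Of the 338 genes, 280 (82.8%) were also called at the gene level, 149 higher in the abdomen and 131 higher in the head and thorax, against 62.9% of all 6341.

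A gene's leading transcript, the one with the largest share of its counts, was followed in 5477 genes with at least 10 counts in each of the 6 libraries. In 2786 genes (50.9%) 1 transcript led in all 6. In 192 genes (3.51%) 1 transcript led in all 3 abdomens and another in all 3 heads and thoraces. Of these 192, 77 (40.1%) were called for usage and the rest were not. The share called was 4.74% of the 2786 genes with 1 leader and 5.33% of all genes tested for usage. Among the 77 the share of the abdominal leader was a median of 56.1 percentage points higher in the abdomen, and the lowest shift was -10.1 points. These genes were chosen in the same libraries by their switch and their call, which favours a large positive shift. In the other 2499 genes the leader varied among libraries of a body part.

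The smallest Simes p among genes with a switch of the leading transcript were those of TR71852|c5_g32 and TR72449|c5_g3 (adjusted p = 6.90e-20 for both, diffSpliceDGE). Transcript i6 of TR71852|c5_g32 took 32.2%, 44.6% and 37.3% of the gene's counts in the abdomens of mated males and at most 6.10e-05% in their heads and thoraces. Transcript i10 led there, with 35.9% ± 0.263 against 16.4% ± 2.05 in the abdomen (SD, n = 3). The gene itself was lower in the abdomen, at -1.40 on the log2 scale (SE 0.0941; edgeR's adjusted p = 2.54e-10). In mated females i6 had a share of 0 in both body parts, and in virgin male abdomens 40.8% ± 3.12.

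For TR72449|c5_g3, transcript i7 took 34.4%, 32.5% and 33.9% of the counts in mated male abdomens and 0.292%, 0.361% and 0.119% in their heads and thoraces. Transcript i1 took 23.1% ± 0.919 in the abdomens and 57.7% ± 6.34 in the heads and thoraces (SD, n = 3). The gene was higher in the abdomen, by 3.98 on the log2 scale (SE 0.201; edgeR's adjusted p = 4.68e-12). In mated female abdomens i7 took 0.0482% ± 0.0183 and i1 63.2% ± 1.52, and in virgin male abdomens 32.7% ± 1.15 and 25% ± 0.617. In both genes the transcript that led in the male abdomen was thus at most a trace in the female abdomen, a description of 2 genes chosen for their switch in mated males.

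**Figure D5:**
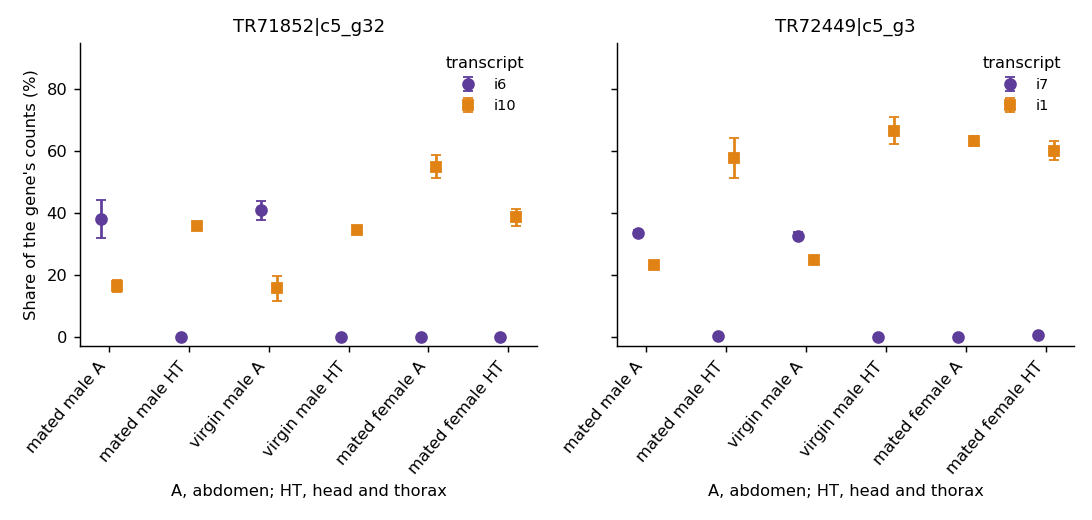
Share of a gene's counts (%) taken by the transcripts that lead in the mated male abdomen and in the mated male head and thorax, for TR71852|c5_g32 and TR72449|c5_g3. Points are means and bars SD of 3 libraries in mated males, virgin males and mated females (A abdomen, HT head and thorax). Transcripts i6 and i7 reach 38.0% and 33.6% in mated male abdomens and stay near 0 in all heads and thoraces and in female abdomens.

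Many IDs share all but their last field, which groups genes into clusters of the sequence set the authors used. Of 2224 clusters with 2 or more genes tested, 635 held 2 or more called genes. In 256 of these (40.3%) all called genes were higher in the abdomen, in 180 (28.3%) all were higher in the head and thorax, and in 199 (31.3%) both directions occurred. Over all genes tested 51.3% were called, and 54.1% of the calls were higher in the abdomen. Whether genes of a cluster share a direction more often than other genes was not tested. In 11 clusters a gene 8-fold or more higher in the abdomen stood beside one 8-fold or more higher in the head and thorax. How the counting shared reads between members of a cluster is unknown here, so single values in such clusters are uncertain.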

How the data were processed

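The authors deposited each library as a single column of estimated counts of genes and of transcripts, not normalised. A stranded mRNA kit was used and every library ran on 2 lanes, per the labels' protocols and the series' design text. The submitters' processing notes list Bowtie 0.12.6, Trimmomatic 0.3, cutadapt 1.2.1 and FastQC 0.11.2. Not given in the sources used here are the counter, the sequence set and whether counting used strand. Reads of near-identical, overlapping or antisense genes may thus have been split in unknown ways.

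The gene table holds 29812 genes, of which 22855 had a count in mated males, and 58250 transcripts; 14.1% of gene values are not whole. Counts were rounded. All 24 libraries were fitted together with edgeR 4.0.16 in R 4.3.3 (TMM scaling, filterByExpr, robust quasi-likelihood test, 1 mean per group), which tested 15558 genes (52.2%), 14176 of them at 1 CPM or more in a mated male body part. The Benjamini-Hochberg adjustment ran over all genes tested, at a threshold of 0.05. The standard error of a log2 fold change is its size over the square root of F. Summed CPM were compared with exact two-sided permutation tests.

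IDs were named by a rule: the 2 highest and 2 lowest log2 values per comparison among called genes that reached 3 counts in all libraries compared (and, for the body part difference, did not overlap), the 2 smallest Simes p among genes with another leading transcript, and the 10 most abundant genes of a body part by rank. The body part, the classes, the lists and the rules were chosen with earlier results of these data known. Alternatives were other scaling (size factors of DESeq2 1.42.0, library size only), filters, DESeq2, limma-voom (limma 3.58.1), no robust estimation, fewer libraries, a replicate block, the transcript table (for 3806 genes its counts summed to another value by over 0.5), other class folds and list limits, and each library left out, except those of virgin females. Choices without replicate 1 of the virgin male head and thorax, limma's diffSplice and a minimum of 10 counts for usage came after the data had been seen.

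Both fits were tested on simulated counts with known changes. There the gene fit missed many of the 2-fold changes, and the usage fit missed most swaps of a gene's leading transcripts. The usage fit also called some genes whose transcripts had not been swapped, so its calls may hold false ones. The genes called are thus not a full list. Replicates differed by more than sampling noise in every group, with a chi-square per degree of freedom of 5.58 or more, and no 2 columns were identical.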

Additional observations from a re-analysis of the deposited data

Results flagged for a closer look

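In 3 genes the body part difference of mated males differed from that of virgin males by the test of the interaction: TR10061|c1_g2 with a log2 value of 3.12, TR44314|c1_g4 with 0.82 and TR8464|c3_g6 with -0.72. Each lost its call when 1 of several libraries was left out, with adjusted p of up to 0.112 for TR10061|c1_g2 and TR44314|c1_g4 and up to 0.0694 for TR8464|c3_g6 (edgeR's quasi-likelihood test).

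In 4 named genes the body part difference of mated males differed from that of mated females by the test of the interaction. The log2 values were 13.40 for TR39199|c0_g1, 13.39 for TR64881|c2_g2, -12.14 for TR25775|c0_g2 and -12.07 for TR44677|c1_g2. The first 2 genes were abundant in the mated male abdomen and the last 2 in the mated female abdomen, with means of under 10 CPM in the other mated groups. Groups of 3 libraries are too small for a test of single outlying libraries.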

How the results depend on the processing

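Of 778 values under an alternative, 660 kept their direction and their side of the threshold or moved by less than the limit set for them, 19 lost their call, 2 changed sign and 97 moved further. The count of body part calls in mated males ranged from 7341 to 8043 over 16 alternatives, and the 4 genes named for it were called under each. The 3 calls of the mating-by-body-part interaction became 62 (29 more positive, 33 more negative) with DESeq2, and 0 more negative with only the libraries compared. Leaving out single libraries gave 0 to 10 calls (0 to 6 more positive, 0 to 4 more negative). For genes male-biased in the virgin head and thorax, the percentages called for the abdomen and for the head and thorax were 13.7% and 58.7% with limma-voom, 77.2% and 9.80% with the class fold doubled, and 22.3% and 47.1% without replicate 1 of the virgin male head and thorax. The median turned to -1.14 with limma-voom and to -0.57 without that library. The cause was not tested. For genes male-biased in the virgin abdomen, the percentage called higher in the head and thorax was 15.8% with the class fold doubled. Of genes female-biased in the virgin head and thorax, 3.23% to 4.64% were called higher in the head and thorax with single mated male libraries left out. Opposite calls in the classes of virgin males, 0 in the report, were 0.0730% for the abdominal class with limma-voom and 0 to 0.0702% with single libraries left out, and 0.214% for the head and thorax class without replicate 1 of the virgin male head and thorax. Usage calls, 338 in the report, were 773 with an F test and 1093 with limma's diffSplice, which was tried after the data were seen, and 228 to 280 with single libraries left out.

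The labels do not say whether same-numbered libraries of the body parts came from the same beetles. In mated males the deviations of same-numbered libraries correlated at -0.000947, 0.0137 and -0.0475. This cannot decide the question, since body parts of the same beetles need not share deviations. With the replicate block, the interaction with mating was called for 1 gene, 0 of them more positive, and usage for 215 genes. In these libraries 1 CPM stood for 7.18 to 8.34 counts. Of genes under 1 CPM, 15.5% were called, and their median SE was 1.24 on the log2 scale.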
